A study of Rattus norvegicus with 9 samples.

Results

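Potassium channel genes are the genes whose symbol starts with Kcn, followed by letters that name a subfamily and a number, and they encode pore-forming subunits and the auxiliary proteins that bind them. By this rule on the symbol, 91 of the 22050 genes in the deposited tables were potassium channel genes. Of these, 88 had at least 1 read, and 71 had enough reads to be tested. The cells were primary cultures from the brain cortex of Sprague Dawley rat embryos at stage E19, and RNA was sequenced from 9 libraries, 3 in each of 3 groups. The control group was untreated. The OGD group went through oxygen-glucose deprivation, an ischaemia model in which medium without glucose and pyruvate is held at 1% O2, here for 4.5 h before a return to normal oxygen. The last group combined OGD with Wnt3a at 100 ng/ml and Rspondin 1 at 50 ng/ml, a Wnt ligand and a secreted enhancer of Wnt signalling, for 24 h. The labels give the conditions of deprivation only for OGD alone, a group that the authors' column names call vehicle. Whether the untreated controls got a vehicle is not stated, nor is the time of harvest after OGD for each group. OGD and control may thus differ by more than deprivation. No group holds the proteins without OGD, so an effect of Wnt3a plus Rspondin 1 on undeprived cells was not measured. The labels do not say whether the 3 libraries of a group came from separate cultures, so each p-value reflects the spread among libraries only, which may be technical.

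Potassium channels let potassium leave the cell, set the resting potential and end action potentials. Voltage-gated subunits open on depolarisation, inward rectifiers and tandem pore-domain (K2P) channels carry background current, and further families open with intracellular calcium or sodium. In cortex, neurons carry most of these subfamilies, while astrocytes are known for the inward rectifier encoded by Kcnj10, which takes up the potassium that active neurons release.

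Library totals ran from 14285914 to 25048521 counts. On principal components, the first (84.1% of variance) separated controls from both OGD groups, and OGD replicate 1 stood apart on the second (4.63%). Markers showed a mixed culture: the summed level of 10 neuron markers was 2720 to 2860 FPKM (fragment counts scaled by gene length and library size) in control and 468 to 632 after OGD, and all 10 were lower. The 9 astrocyte markers summed to 2210 to 2390 FPKM in control and 5920 to 6550 after OGD, with 8 higher. The 9 microglia markers summed to 3.39 to 5.71 FPKM in control and 21.9 to 23.9 after OGD, and all 7 tested were higher. In bulk RNA, fewer cells of a type and less RNA per cell cannot be told apart. The part that these shifts have in the channel values below was not tested.

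The potassium channel genes carried 0.1936, 0.1913 and 0.1857% of all counts in the control libraries. After OGD they carried 0.0673, 0.0634 and 0.0694%, and with Wnt3a plus Rspondin 1 0.0682, 0.0627 and 0.0693%. Summed over the 91 genes, the level was 668, 660 and 629 FPKM in control, 251, 218 and 240 FPKM after OGD and 246, 228 and 240 FPKM with Wnt3a plus Rspondin 1. The control libraries thus lay far above all others, and the OGD groups overlapped each other. In control, 26 members had a mean of at least 10 FPKM and 62 of at least 1 FPKM. After OGD these numbers were 5 and 45, and with Wnt3a plus Rspondin 1 they were 4 and 43. The 5 highest members held 22.9% of the summed level in control and 39.5% after OGD.

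**Figure D1:**
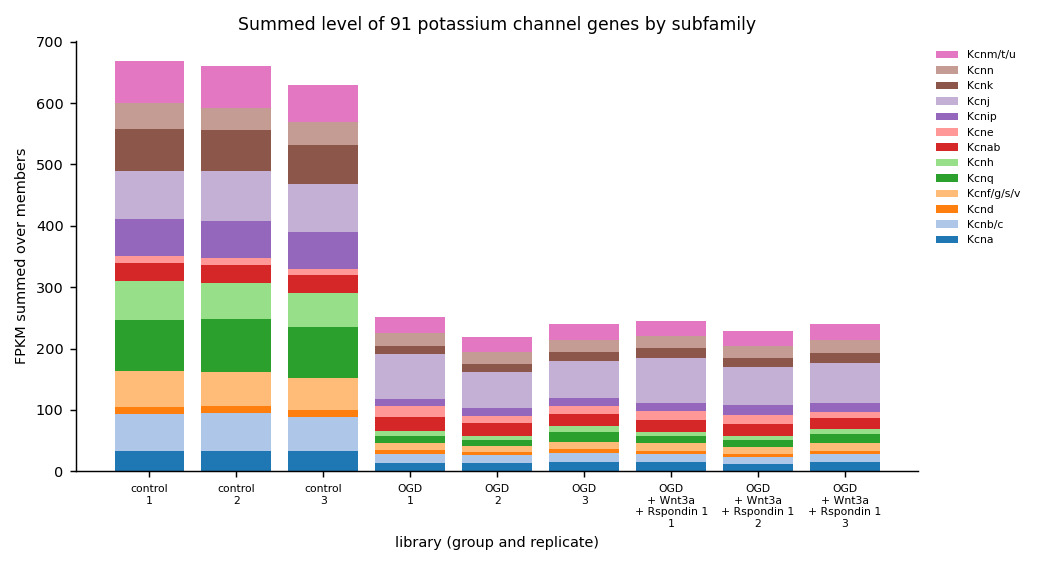
FPKM summed over the 91 potassium channel genes (y axis) in each of the 9 libraries (x axis), with the bar segments giving the subfamilies. The control bars reach 629 to 668 FPKM and the other 6 bars 218 to 251 FPKM, where the Kcnj segment is the tallest.

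Among the most abundant members in control were the calcium-activated channel subunit gene Kcnmb4, at a mean of 33.2 ± 2.76 FPKM (SD, n = 3), Kcnh3 at 28.5 ± 3.49, Kcnn1 at 24.4 ± 2.83, Kcnj10 at 24.0 ± 1.66 and Kcnip1 at 23.3 ± 1.23 FPKM. Among these 5, no neighbours in this order had library ranges apart. Kcnab2, Kcnq3, Kcnk9, Kcnf1 and Kcnq5 had means between 18.0 and 20.2 FPKM. The order depends on the unit, since only 4 of the 10 highest members by FPKM were also among the 10 highest by CPM, counts scaled by library size alone. For 14 tested members, Kcnn1 and Kcnq5 among them, counts and FPKM did not keep 1 ratio across libraries (off by over 10%), and their library values below are read counts, which are not scaled for depth. Kcnc2, Kcnj16, Kcnk4 and the untested members are also given as read counts, and all others in FPKM.

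The first comparison asked which channel genes differ between OGD and control. Of the 71 tested members, 61 were lower and 6 higher after OGD at an adjusted p under 0.05 (quasi-likelihood F test in edgeR, adjusted by Benjamini-Hochberg over 13693 genes). The background is large: 73.1% of all tested genes passed this threshold, 36.8% lower and 36.3% higher. Among the tested members, 85.9% were lower and 8.45% higher. The median log2 change was -2.26 over the tested members and 0.02 over all tested genes. At least 2-fold lower were 54 members and at least 2-fold higher 3, against 18.8% and 14.2% of all tested genes. The control and OGD libraries did not overlap for 68 of the 71, against 75.5% of all genes. The 4 members past the threshold in neither direction were Kcne2, Kcne5, Kcnk5 and Kcnn3. Of the 61, 28 fell at least as far as the neuron markers' median of -2.63, and 33 fell less. Of the tested members, 6 (Kcnc2, Kcng3, Kcnk15, Kcnk4, Kcnmb2 and Kcns1) reached the count minimum only through the control libraries and Kcnj16 only through the OGD groups, so that these 7 had to differ to be tested at all. In the authors' deposited table, 62 of all 91 members were lower and 6 higher at a false discovery rate under 0.05. Kcna7 and Kcnv2, not tested here, were among the lower ones. Without OGD replicate 1, which stood apart, 62 were lower and 6 higher. The count filter was applied anew there, so the tested members were not all the same, and Kcna2 lost its call. In each of 13 other settings the same 6 members were higher and the same 59 were lower, and Kcna2 and Kcnj12 lost their call in some.

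**Figure D2:**
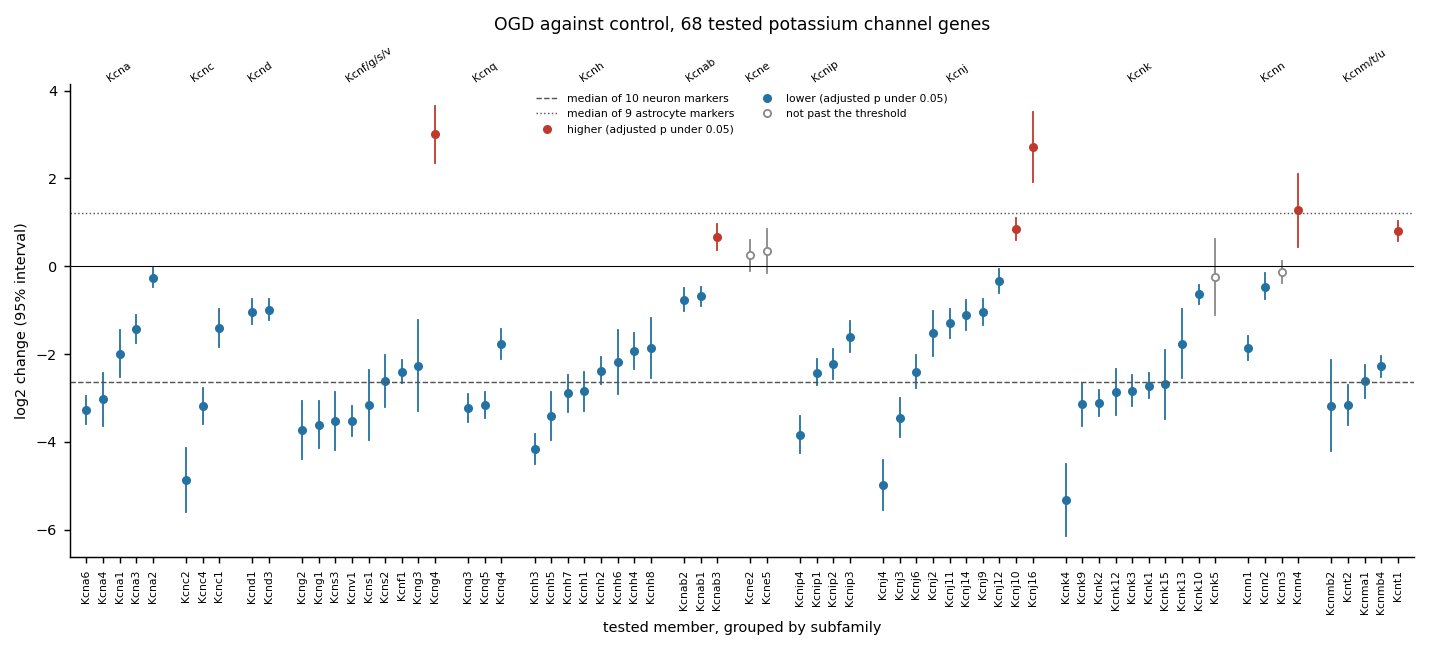
Log2 change of OGD against control (y axis, point with 95% interval) for 68 of the tested members, grouped by subfamily (x axis), with filled points past the adjusted threshold. Most points lie below 0 and around the dashed median of the neuron markers at -2.63, while Kcng4, Kcnab3, Kcnj10, Kcnj16, Kcnn4 and Kcnt1 lie above 0.

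The promoters of 4 members are shown here, each as the 250 bases before the transcription start: the higher Kcnj10 and Kcng4, the abundant Kcnmb4, and Kcnk4 with the deepest fall. Kcnk4 was one of the members that reached the count minimum only through the control libraries. The sequences are RefSeq's for the GRCr8 build, written 5′ to 3′ on the gene's strand, at chr13:87334260-87334509 (plus) for Kcnj10, chr19:64597889-64598138 (minus) for Kcng4, chr7:54005102-54005351 (minus) for Kcnmb4 and chr1:213555862-213556111 (minus) for Kcnk4. Capitals mark GC boxes (GGGCGG) and CCAAT boxes, read on both strands.
Kcnj10: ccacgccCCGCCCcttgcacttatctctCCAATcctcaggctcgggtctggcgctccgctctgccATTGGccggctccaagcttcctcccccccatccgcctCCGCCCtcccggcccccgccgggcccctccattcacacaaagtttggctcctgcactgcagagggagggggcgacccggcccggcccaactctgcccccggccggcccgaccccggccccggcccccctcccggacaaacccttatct
Kcng4: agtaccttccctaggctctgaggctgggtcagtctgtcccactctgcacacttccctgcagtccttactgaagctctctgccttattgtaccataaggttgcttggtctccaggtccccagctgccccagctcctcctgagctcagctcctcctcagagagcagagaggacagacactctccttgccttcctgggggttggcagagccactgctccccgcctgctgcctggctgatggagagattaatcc
Kcnmb4: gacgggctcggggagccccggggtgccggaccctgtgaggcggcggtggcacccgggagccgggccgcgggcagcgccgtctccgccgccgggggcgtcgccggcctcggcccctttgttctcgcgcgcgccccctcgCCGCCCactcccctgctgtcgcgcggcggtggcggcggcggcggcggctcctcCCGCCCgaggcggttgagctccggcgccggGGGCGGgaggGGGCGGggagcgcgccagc
Kcnk4: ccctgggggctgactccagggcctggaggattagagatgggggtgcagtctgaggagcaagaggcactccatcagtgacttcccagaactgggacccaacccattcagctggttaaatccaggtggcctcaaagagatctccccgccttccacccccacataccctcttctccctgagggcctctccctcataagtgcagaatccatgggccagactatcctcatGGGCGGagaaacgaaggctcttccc
The Kcnj10 promoter held 2 GC boxes and 2 CCAAT boxes in 72.4% G and C. Kcnmb4 held 4 GC boxes in 84.4% G and C, and Kcnk4 held 1 in 58.4%. None of the motifs searched was found in this window of Kcng4.

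RefSeq's table held a promoter for 62 of the 91 members, among them 38 of those lower after OGD. Of these 38, 60.5% held a GC box, against 59.1% of the 10279 promoters of tested genes. The CCAAT box was in 21.1% against 35.2%. ACGTG, the core letters of a hypoxia response element, was in 2 of the 38 (5.26%) against 22.0%. TTCAGCACC, the left part of the element bound by the neuronal-gene repressor REST, was in 1 (2.63%) against 0.428%. TATAAA and TGACGTCA were in none of the 38, against 6.17% and 2.88%. The median G and C content was 67.6% against 60.4%. A match is only a run of letters, and shares that rest on 1 or 2 of the 38 promoters are not read as contrasts here. The 5 promoters of members that rose (2 with ACGTG, 2 with a GC box, 2 with a CCAAT box) are also too few to set against these shares.

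Kcna genes encode Kv1 subunits, which sit largely on axons and hold back firing. All 5 tested were lower, with a median log2 change of -1.99. Kcna6 stood at 12.7, 12.1 and 12.03 FPKM in control, 1.22, 1.09 and 1.78 after OGD and 1.29, 1.39 and 1.55 with Wnt3a plus Rspondin 1. Its control libraries were far above the rest, and it fell by 3.27 ± 0.15 (log2 ± SE, adjusted p = 1.06e-09). Kcna3, a subunit also known from microglia and lymphocytes, stood at 4.57, 4.53 and 4.38 FPKM in control, 1.62, 1.70 and 2.00 after OGD and 1.78, 1.38 and 2.08 with Wnt3a plus Rspondin 1 and fell by 1.43 ± 0.15. Kcna2, the main axonal subunit of the family, gave 2041, 1721 and 2770 reads in control, 1196, 2267 and 1569 after OGD and 2108, 1402 and 1672 with Wnt3a plus Rspondin 1. Here the groups overlapped in CPM, and the fall was 0.26 ± 0.10 (adjusted p = 0.0299). That call was lost when scaled by library totals (log2 change -0.18, adjusted p = 0.139), by limma on log2 FPKM (-0.04, adjusted p = 0.791), and without control replicate 2 (-0.23, adjusted p = 0.103), control replicate 3 (-0.24, adjusted p = 0.0888) or OGD replicate 1 (-0.19, adjusted p = 0.0793). In FPKM, whose ratio to the counts was uneven across libraries for this gene, Kcna2 made up 29.9 to 34.2% of the Kcna sum in control and 67.0 to 74.4% after OGD.

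Kcnc genes encode Kv3 channels, which let neurons fire fast. All 4 were lower (median -2.65). For Kcnc4 the values were 10.2, 12.2 and 9.91 FPKM in control, 1.72, 1.06 and 1.07 after OGD and 0.88, 1.20 and 1.21 with Wnt3a plus Rspondin 1, a fall of 3.17 ± 0.19. Kcnc1 stood at 8.65, 7.66 and 7.45 FPKM in control, 4.16, 2.63 and 2.80 after OGD and 2.97, 1.95 and 3.38 with Wnt3a plus Rspondin 1 and fell by 1.40 ± 0.20. The control libraries of neither gene met those of the OGD groups. Kcnc2 was nearly lost from the OGD libraries, with 214, 187 and 240 reads in control, 7, 8 and 5 after OGD and 3, 8 and 14 with Wnt3a plus Rspondin 1. Its fall of 4.87 ± 0.33 was the third deepest of all members, though it reached the count minimum only through the control libraries.

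Kcnd genes encode the Kv4 pore of the A-type current in dendrites, and the Kcnip genes encode the calcium-binding proteins that bring Kv4 to the membrane. Both tested Kcnd genes and all 4 Kcnip genes were lower, by medians of -1.01 and -2.32. Kcnd1 stood at 5.70, 4.85 and 4.51 FPKM in control, 2.83, 2.37 and 2.65 after OGD and 2.62, 2.18 and 2.28 with Wnt3a plus Rspondin 1 and fell by 1.03 ± 0.13. Kcnd3 gave 691, 635 and 988 reads in control, 256, 514 and 312 after OGD and 351, 293 and 326 with Wnt3a plus Rspondin 1, a fall of 0.99 ± 0.11. The control libraries of these pore genes lay above the rest, though by less than those of their partners. Kcnd2, a further Kv4 pore gene, was not among the members, so this holds for Kcnd1 and Kcnd3 only. Kcnip1 stood at 23.4, 24.5 and 22.0 FPKM in control, 4.33, 4.80 and 4.65 after OGD and 5.43, 3.60 and 4.74 with Wnt3a plus Rspondin 1 and fell by 2.42 ± 0.14. Kcnip2 stood at 16.2, 16.1 and 16.3 FPKM in control, 3.69, 3.57 and 3.82 after OGD and 3.17, 5.48 and 3.73 with Wnt3a plus Rspondin 1 and fell by 2.23 ± 0.16. Both stayed far below control in all 6 OGD libraries. Kcnip3, whose product has also been described as a transcriptional repressor, gave 382, 263 and 487 reads in control, 91, 140 and 107 after OGD and 115, 152 and 150 with Wnt3a plus Rspondin 1, a fall of 1.60 ± 0.16. Kcnip4 gave 261, 208 and 411 reads in control, 14, 22 and 19 after OGD and 16, 21 and 20 with Wnt3a plus Rspondin 1, a fall of 3.84 ± 0.19 that was the fifth deepest of all members. Kcnip1 overlaps another channel gene, Kcnmb1, in the RefSeq annotation, and whether counting used strand is not known here, so reads of this pair may not be told apart.

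The Kcnf, Kcng, Kcns and Kcnv genes encode silent subunits, which form no channel alone but change the channels they enter. Of 9 tested, 8 were lower and 1 higher, with a median of -3.16. Kcnf1 stood at 19.6, 19.3 and 16.0 FPKM in control, 3.88, 3.23 and 4.04 after OGD and 3.30, 3.17 and 3.63 with Wnt3a plus Rspondin 1 and fell by 2.40 ± 0.12. Kcng1 stood at 16.0, 14.0 and 13.8 FPKM in control, 1.53, 0.67 and 1.76 after OGD and 1.00, 0.86 and 1.26 with Wnt3a plus Rspondin 1 and fell by 3.61 ± 0.25. Kcnv1 stood at 7.75, 8.55 and 8.78 FPKM in control, 0.79, 0.68 and 0.86 after OGD and 0.64, 0.72 and 1.06 with Wnt3a plus Rspondin 1 and fell by 3.52 ± 0.16. In each of these the lowest control library was above the highest OGD library. Kcng2 stood at 4.66, 4.08 and 4.30 FPKM in control, 0.27, 0.27 and 0.52 after OGD and 0.16, 0.51 and 0.36 with Wnt3a plus Rspondin 1 and fell by 3.73 ± 0.30. Kcns3 stood at 1.95, 2.21 and 2.38 FPKM in control, 0.15, 0.17 and 0.27 after OGD and 0.22, 0.48 and 0.47 with Wnt3a plus Rspondin 1 and fell by 3.52 ± 0.31. Kcng4 went the other way, with 0.38, 0.58 and 0.21 FPKM in control, 3.51, 3.28 and 2.70 after OGD and 6.04, 4.15 and 3.63 with Wnt3a plus Rspondin 1. All 6 OGD libraries were above all controls, and it rose by 3.01 ± 0.30 (adjusted p = 1.56e-06). Its share of the summed level of silent subunits was 0.408 to 1.05% in control and 23.0 to 36.4% after OGD.

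Kcnq genes encode the channels of the M-current, which muscarinic receptors shut and which keeps neurons from repetitive firing. All 4 tested were lower, with a median of -2.97. Kcnq3 stood at 17.5, 19.5 and 19.8 FPKM in control, 2.06, 1.82 and 2.65 after OGD and 2.21, 1.94 and 2.70 with Wnt3a plus Rspondin 1. The OGD libraries held well under the control libraries, and it fell by 3.22 ± 0.15 (adjusted p = 1.13e-09). Kcnq5 gave 1705, 1401 and 2461 reads in control, 115, 244 and 210 after OGD and 207, 176 and 186 with Wnt3a plus Rspondin 1, a fall of 3.16 ± 0.14. All 3 control libraries had more reads than any of the OGD libraries.

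Kcnh genes encode the channels of the ether-a-go-go family. All 8 were lower, with a median of -2.62 and a range from -4.16 to -1.85. Kcnh3, a forebrain member, stood at 32.5, 27.3 and 25.8 FPKM in control, 1.64, 1.55 and 1.93 after OGD and 1.52, 2.26 and 2.27 with Wnt3a plus Rspondin 1. It fell to between 1.52 and 2.27 FPKM in the 6 OGD libraries, and for OGD alone the fall was 4.16 ± 0.16. Kcnh2, the gene known for cardiac repolarisation, stood at 12.7, 11.5 and 11.8 FPKM in control, 2.57, 1.99 and 3.20 after OGD and 2.70, 2.35 and 2.61 with Wnt3a plus Rspondin 1 and fell by 2.38 ± 0.15. Kcnh1 stood at 8.05, 8.18 and 8.11 FPKM in control, 1.44, 0.84 and 1.39 after OGD and 0.71, 0.66 and 1.26 with Wnt3a plus Rspondin 1 and fell by 2.85 ± 0.21. For all 8 genes the control libraries lay above all OGD libraries. Kcnh3 overlaps Mcrs1 and Kcnh7 overlaps Gca in the annotation.

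**Figure D3:**
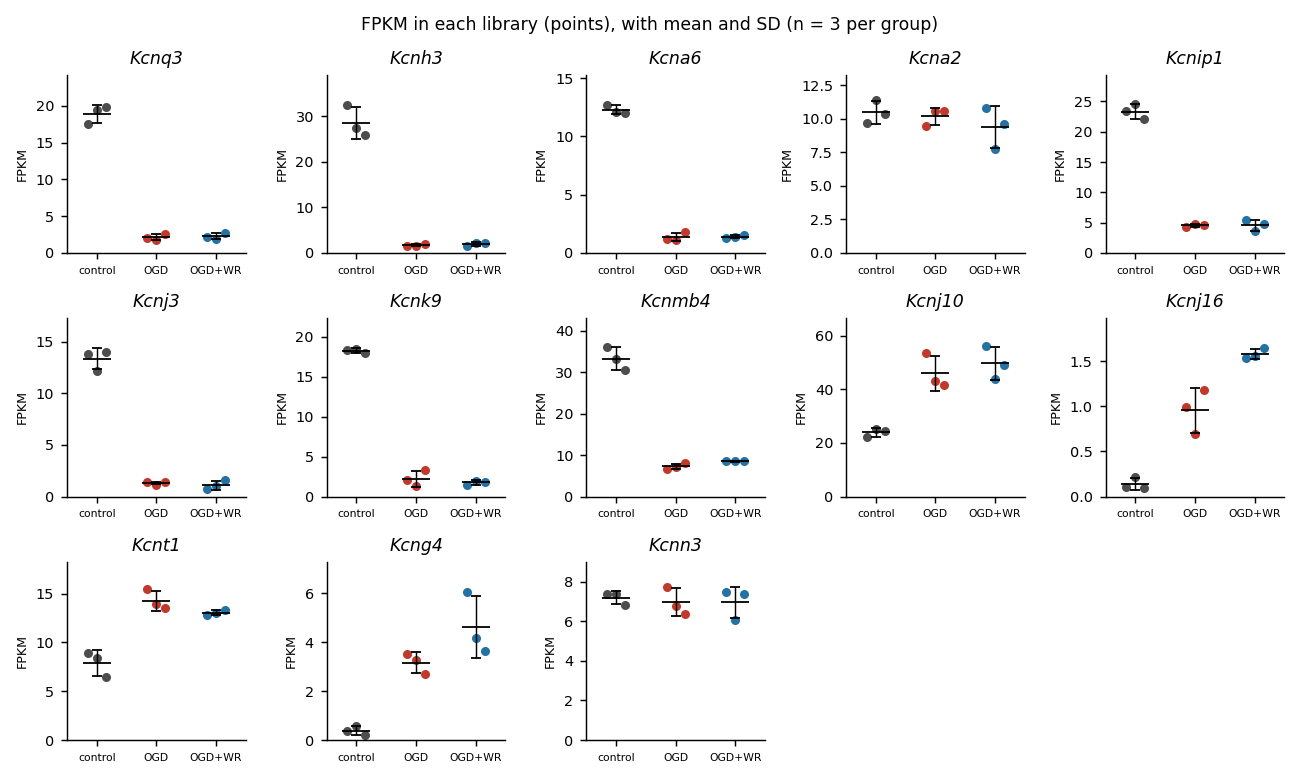
FPKM (y axis, from 0) of 13 members in each library of control, OGD and OGD with Wnt3a plus Rspondin 1 (OGD+WR), as points with the mean and SD of 3 libraries. Kcnq3, Kcnh3 and most others fall after OGD, Kcnj10, Kcnj16, Kcnt1 and Kcng4 rise, and Kcna2 and Kcnn3 overlap between groups.

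The Kcnab proteins are auxiliary subunits that bind Kv1 channels inside the cell, and of the 3 genes 2 were lower and 1 higher. Kcnab2 stood at 20.8, 20.6 and 19.3 FPKM in control, 14.8, 11.6 and 11.8 after OGD and 10.9, 12 and 10.1 with Wnt3a plus Rspondin 1 and fell by 0.76 ± 0.12. It overlaps Nphp4 in the annotation. Kcnab1 stood at 6.83, 7.34 and 7.61 FPKM in control, 4.13, 5.15 and 5.11 after OGD and 4.63, 4.53 and 4.51 with Wnt3a plus Rspondin 1 and fell by 0.68 ± 0.10. Kcnab3 stood at 2.33, 1.94 and 2.14 FPKM in control, 3.71, 3.66 and 3.43 after OGD and 3.58, 3.54 and 3.04 with Wnt3a plus Rspondin 1, and its OGD libraries were above control, a rise of 0.66 ± 0.14 (adjusted p = 0.000917). The Kcne genes encode small auxiliary proteins with a single membrane span, and neither of the 2 tested passed the threshold. Kcne5 stood at 7.75, 7.70 and 7.52 FPKM in control, 14.0, 8.97 and 8.14 after OGD and 11.8, 11.1 and 7.28 with Wnt3a plus Rspondin 1, a log2 change of 0.34 ± 0.23 that missed the threshold (adjusted p = 0.192). Kcne2 stood at 2.84, 2.87 and 2.58 FPKM in control, 3.18, 3.27 and 4.03 after OGD and 2.57, 3.49 and 2.89 with Wnt3a plus Rspondin 1, a change of 0.25 ± 0.16 (adjusted p = 0.18). In CPM the control libraries were below those of OGD alone for the 2 tested Kcne genes, where 75.5% of all genes had libraries apart. With Wnt3a plus Rspondin 1 both genes overlapped control. Over all auxiliary members tested (the Kcnab, Kcne, Kcnip and Kcnmb families), 8 of 11 were lower and 1 higher, with a median of -1.60, against 53 lower and 5 higher of 60 pore-forming members, with a median of -2.39.

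Kcnj genes encode inward rectifiers. Of 10 tested, 8 were lower and 2 higher, with a median of -1.20. Kcnj10, the main inward rectifier of astrocytes, stood at 22.1, 25.3 and 24.4 FPKM in control, 53.3, 42.9 and 41.4 after OGD and 56.2, 44.0 and 48.9 with Wnt3a plus Rspondin 1. Every OGD library was above every control library, and it rose by 0.85 ± 0.12 (adjusted p = 2.53e-05). Kcnj16, whose product joins that of Kcnj10 in a shared channel, gave 4, 6 and 4 reads in control, 25, 27 and 33 after OGD and 54, 47 and 48 with Wnt3a plus Rspondin 1, from few reads in control to a rise of 2.71 ± 0.37 (adjusted p = 2.13e-05). Kcnj16 reached the count minimum only through the OGD groups. Of the 9 astrocyte markers, 8 also rose, and the median log2 change over the 9 genes was 1.22. The part of this shift in both rises was not tested.

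The G protein-gated members lie behind slow inhibition by transmitters. Kcnj3 stood at 13.8, 12.2 and 14.0 FPKM in control, 1.38, 1.16 and 1.39 after OGD and 0.71, 1.00 and 1.56 with Wnt3a plus Rspondin 1 and fell by 3.45 ± 0.20. Kcnj9 stood at 13.0, 12.4 and 10.6 FPKM in control, 6.68, 5.57 and 5.82 after OGD and 6.12, 6.90 and 5.14 with Wnt3a plus Rspondin 1 and fell by 1.04 ± 0.14, a smaller change. It overlaps Igsf8 in the annotation. Kcnj4, a classical inward rectifier of forebrain neurons, stood at 10.8, 11.3 and 9.10 FPKM in control, 0.16, 0.35 and 0.53 after OGD and 0.36, 0.46 and 0.71 with Wnt3a plus Rspondin 1, so that all OGD libraries were close to 0, and it fell by 4.97 ± 0.26. Kcnj2, of the same class, stood at 2.22, 2.56 and 2.40 FPKM in control, 0.75, 0.80 and 1.10 after OGD and 0.57, 1.02 and 0.83 with Wnt3a plus Rspondin 1 and fell by 1.52 ± 0.24. Kcnj11, the pore of the ATP-sensitive channel that opens when cellular energy falls, had means of 4.32 ± 0.25 FPKM in control and 1.88 ± 0.29 after OGD (SD, n = 3) and fell by 1.30 ± 0.15, and its partner gene Abcc8 fell by 2.62 ± 0.16. Kcnj12, also a classical inward rectifier, fell by 0.34 ± 0.13 (adjusted p = 0.031), and its call was lost with library totals (-0.25, adjusted p = 0.0926), limma on log2 FPKM (-0.22, adjusted p = 0.0927) or only the 6 libraries compared (-0.32, adjusted p = 0.0548). It was also lost without OGD replicate 2 (-0.26, adjusted p = 0.122), control replicate 1 (-0.27, adjusted p = 0.121) or control replicate 3 (-0.33, adjusted p = 0.0756). Within the family, Kcnj10 made up 27.9 to 31.7% of the summed level in control and 69.0 to 74.0% after OGD. Over all 91 genes it was 3.31 to 3.88% in control and 17.2 to 21.3% after OGD, where it was the highest member.

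Kcnk genes encode K2P channels. Of 10 tested, 9 were lower, with a median of -2.77, and none was higher. Kcnk9, an acid-sensitive member, stood at 18.4, 18.5 and 18.0 FPKM in control, 2.05, 1.37 and 3.33 after OGD and 1.40, 2.00 and 1.88 with Wnt3a plus Rspondin 1 and fell by 3.14 ± 0.23. Kcnk2, a channel opened by stretch and lipids and also found in astrocytes, gave 543, 422 and 739 reads in control, 42, 70 and 65 after OGD and 83, 58 and 64 with Wnt3a plus Rspondin 1, a fall of 3.12 ± 0.14. Kcnk4, of the same mechanically gated group, gave 139, 93 and 133 reads in control, 2, 1 and 5 after OGD and 5, 5 and 3 with Wnt3a plus Rspondin 1. The OGD libraries kept only a few reads each, and its fall of 5.32 ± 0.37 was the deepest of all members. Kcnk4 reached the count minimum only through the control libraries, so it had to fall to be tested. Kcnk10, the last of that group, stood at 7.91, 8.30 and 8.20 FPKM in control, 5.04, 5.63 and 6.00 after OGD and 7.70, 6.46 and 7.13 with Wnt3a plus Rspondin 1. It lost far less, 0.63 ± 0.10, so that its share of the Kcnk sum was 11.7 to 12.9% in control and 37.9 to 47.2% after OGD. Kcnk1, known from neurons and astrocytes, gave 325, 295 and 446 reads in control, 37, 60 and 51 after OGD and 77, 69 and 67 with Wnt3a plus Rspondin 1, a fall of 2.72 ± 0.13. Kcnk13, a gene of microglia, stood at 0.91, 1.14 and 0.77 FPKM in control, 0.38, 0.20 and 0.31 after OGD and 0.37, 0.26 and 0.60 with Wnt3a plus Rspondin 1 and fell by 1.76 ± 0.36, while all 7 tested microglia markers were higher.

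Calcium-activated channels of small conductance, which shape the pause after a spike, come from Kcnn1, Kcnn2 and Kcnn3. Kcnn1 gave 1137, 714 and 1267 reads in control, 249, 291 and 230 after OGD and 288, 219 and 221 with Wnt3a plus Rspondin 1, a fall of 1.85 ± 0.13. Kcnn2 stood at 6.62, 7.16 and 6.67 FPKM in control, 4.41, 5.70 and 5.64 after OGD and 5.60, 5.56 and 6.99 with Wnt3a plus Rspondin 1 and fell by 0.46 ± 0.13 (adjusted p = 0.00838). Kcnn3 stood at 7.36, 7.40 and 6.81 FPKM in control, 7.75, 6.79 and 6.35 after OGD and 7.48, 6.07 and 7.37 with Wnt3a plus Rspondin 1, with overlapping groups and a log2 change of -0.13 ± 0.12 (adjusted p = 0.324, 95% interval -0.38 to 0.12). The 3 genes thus ran from a deep fall to no detectable change. Kcnn4, the intermediate-conductance channel of blood and microglial cells, gave 15, 5 and 29 reads in control, 37, 41 and 26 after OGD and 25, 39 and 28 with Wnt3a plus Rspondin 1. In CPM every library of OGD alone was above every control library, and from these few reads it rose by 1.28 ± 0.38 (adjusted p = 0.00911).

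Kcnma1 encodes the large-conductance calcium-activated pore, and the Kcnmb genes its membrane partners. Kcnma1 stood at 15.3, 16.3 and 16.7 FPKM in control, 2.49, 2.40 and 3.41 after OGD and 2.15, 1.90 and 3.28 with Wnt3a plus Rspondin 1 and fell by 2.62 ± 0.17. Kcnmb4, the neuronal partner, stood at 36.0, 33.2 and 30.4 FPKM in control, 6.64, 7.22 and 7.98 after OGD and 8.67, 8.51 and 8.47 with Wnt3a plus Rspondin 1 and fell by 2.27 ± 0.11. Kcnmb2 gave 43, 47 and 59 reads in control, 1, 5 and 9 after OGD and 7, 17 and 13 with Wnt3a plus Rspondin 1, a fall of 3.17 ± 0.47. All 3 were lower in every OGD library than in any control library, though Kcnmb2 reached the count minimum only through control. Of the sodium-activated channels, Kcnt1 stood at 8.88, 8.36 and 6.44 FPKM in control, 15.4, 13.9 and 13.5 after OGD and 12.8, 13.0 and 13.3 with Wnt3a plus Rspondin 1. Its OGD libraries were all above control, and it rose by 0.81 ± 0.11 (adjusted p = 1.5e-05). Kcnt2, the closest relative of Kcnt1, had 343, 278 and 526 reads in control, 22, 42 and 51 after OGD and 47, 43 and 51 with Wnt3a plus Rspondin 1 and fell by 3.16 ± 0.21. Kcnt1 made up 10.7 to 12.9% of the summed level of the Kcnm, Kcnt and Kcnu genes in control and 51.9 to 61.6% after OGD.

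A list of 10 members known from glia and microglia split: of 9 tested, 3 were higher (Kcnj10, Kcnj16 and Kcnn4) and 6 lower (Kcna3, Kcnj2, Kcnk1, Kcnk2, Kcnk10 and Kcnk13), with a median of -1.43. The defining astrocyte and microglia markers moved upward in the same libraries, as given above. Oligodendrocyte lineage markers were higher for 6 and lower for 3 of 9, with a median of 0.90, and progenitor markers for 5 and 1 of 6, with a median of 1.64. The excitatory neuron markers were lower for 6 of 6 (median -2.51) and the inhibitory ones for 6 of 7 (median -2.63). Endothelial markers rose for both tested genes, with Cldn5 at 0 reads in all libraries, and mural cell and fibroblast markers were higher for 3 and lower for 2 of 6 tested.

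A list of potassium channel partner genes was mostly lower too. Besides genes for proteins that bind or anchor these channels, it held Fgf12, Fgf13 and Fgf14 and the G protein regulators Rgs6, Rgs7 and Gnb5. Of the 25 genes listed, 23 were tested, 21 were lower and 1 higher, with a median of -1.71. Lgi1, a secreted partner of Kv1 channels, fell by 3.12 ± 0.18. Dpp10, an auxiliary subunit of Kv4, fell by 2.43 ± 0.19, and its relative Dpp6 by only 0.71 ± 0.07. Ank3, the anchor at the axon initial segment, fell by 2.03 ± 0.12. The scaffold gene Dlg1 was the member of this list that rose, by 0.44 ± 0.11.

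A list of 15 potassium transport genes went both ways. It held pump subunits and cotransporters, and besides them Tmem175, Lrrc8a and Kcnrg, which are neither. Of 14 tested, 9 were higher and 4 lower, with a median of 0.57. Slc12a5, the neuronal potassium-chloride exporter, fell by 3.74 ± 0.13, and Slc12a4, its widely expressed relative, rose by 1.75 ± 0.11. The other voltage-gated channel genes, for sodium, calcium and HCN channels, were lower for 33 and higher for 2 of 36 tested, with a median of -2.24. That median lay next to the -2.26 of the potassium channel genes.

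The second comparison asked which channel genes differ when Wnt3a plus Rspondin 1 was added to OGD. None of the 71 tested members passed the threshold, in edgeR or in any of the 13 other settings run, DESeq2 among them. The background is small: 0.197% of all tested genes passed (24 higher and 3 lower). That background depends on the setting, with 60 higher and 39 lower by DESeq2, 43 and 22 with the replicate number as a block, and 10 to 38 higher and 2 to 11 lower when 1 library was left out. At an unadjusted p under 0.05 in edgeR's test there were 6 members of 71, against 5.73% of all genes, and the libraries of both groups were apart for 6 members, against 9.78%. The median log2 difference was -0.01, and 47 members were within 0.25 of 0. The summed level stood at 236 ± 16.6 FPKM after OGD alone and 238 ± 9.17 FPKM with Wnt3a plus Rspondin 1 (SD, n = 3).

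How far the data limit a difference varied with depth. The 95% interval lay within a 1.5-fold difference either way for 32 members and within 2-fold for 56. For the low Kcnmb2 and Kcnk15 the intervals reached 2.45 and -2.11 on the log2 scale. Among abundant members, the interval was -0.16 to 0.35 for Kcnj10, -0.27 to 0.43 for Kcnq3 and -0.37 to 0.09 for Kcnt1. In the authors' deposited table no member passed, and the smallest false discovery rate was 0.752.

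**Figure D4:**
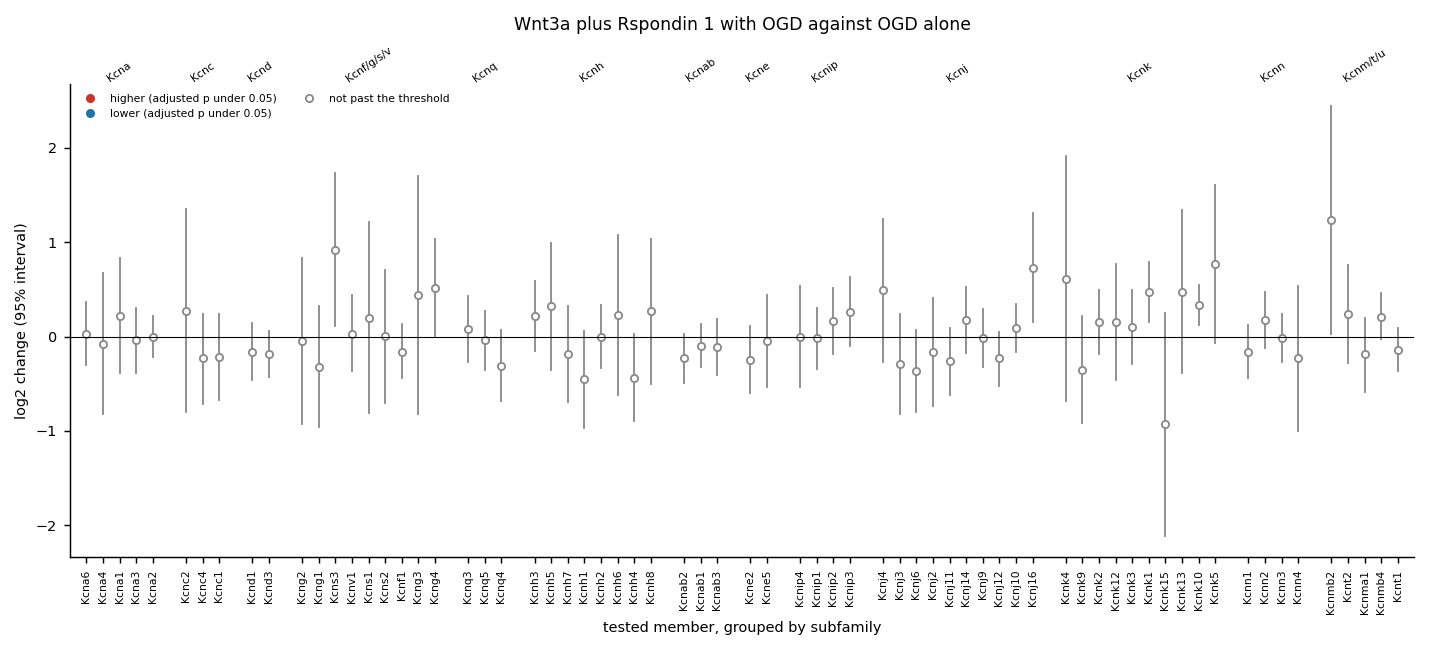
Log2 difference between OGD with Wnt3a plus Rspondin 1 and OGD alone (y axis, point with 95% interval) for 68 of the tested members by subfamily (x axis). All points are open, since none passed the adjusted threshold, and the intervals are widest for members with few reads such as Kcnmb2 and Kcnk15.

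The 6 of 71 members at an unadjusted p under 0.05, against 5.73% of all genes, were all higher with the proteins. How all genes at this cutoff split by direction was not counted, so the shared direction is not read as a trait of the members. For Kcnk10, whose values are given above, the 3 libraries with the proteins were all above those without, and the difference was 0.33 ± 0.10 (unadjusted p = 0.00586, adjusted p = 0.448 in edgeR's test). Kcnk1 differed by 0.47 ± 0.15 (unadjusted p = 0.0073, adjusted p = 0.486). Kcnj16 differed by 0.73 ± 0.27 (unadjusted p = 0.0183, adjusted p = 0.664). Their libraries were also apart. In edgeR's test Kcns3 differed by 0.92 ± 0.37 (adjusted p = 0.783), Kcnmb2 by 1.24 ± 0.56 (adjusted p = 0.865) and Kcng4 by 0.52 ± 0.24 (adjusted p = 0.866). Of these, only Kcng4 had libraries apart, and Kcnmb2 reached the count minimum only through control. Among the potassium transport genes, Atp1b1, a beta subunit of the sodium-potassium pump, was higher by 0.52 ± 0.08 (adjusted p = 0.0115).

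The third pair of groups set OGD with Wnt3a plus Rspondin 1 against control, and it shares the control libraries with the first. Here 60 members were lower and 6 higher, with a median of -2.07, and 72.6% of all tested genes passed (36.0% lower, 36.6% higher). For Kcnj10 the log2 change was 0.95 ± 0.12, beside 0.85 ± 0.12 for OGD alone. For Kcng4 it was 3.53 ± 0.30 beside 3.01 ± 0.30, and for Kcnq3 -3.14 ± 0.14 beside -3.22 ± 0.15. Kcnn2 passed only with OGD alone, and its change here was -0.28 ± 0.13 (adjusted p = 0.0767). The difference between the groups was not past the threshold for this gene either. Kcnn4 rose by 1.04 ± 0.39, a call lost without control replicate 1 (1.02, adjusted p = 0.0667), control replicate 2 (0.76, adjusted p = 0.0836) or replicate 2 of the Wnt3a plus Rspondin 1 group (0.81, adjusted p = 0.122). Kcnk10 changed by -0.30 ± 0.10, a call lost without control replicate 2 (-0.27, adjusted p = 0.057) or replicate 2 of the Wnt3a plus Rspondin 1 group (-0.24, adjusted p = 0.0651).

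The remaining 20 members were not tested, 3 of them without a read (Kcna10, Kcne1 and Kcnj1), and none had more than 51 reads over the 9 libraries. Kcna7 gave 16, 7 and 23 reads in control, 2, 2 and 1 after OGD and 0, 0 and 0 with Wnt3a plus Rspondin 1. Kcnv2, a silent subunit known from the retina, gave 13, 8 and 15 reads in control, 0, 0 and 0 after OGD and 0, 1 and 0 with Wnt3a plus Rspondin 1. Both were seen nearly only in control, with too few reads for a statement on size. Kcnmb1, the smooth muscle partner of the large-conductance channel, gave 0, 0 and 0 reads in control, 3, 6 and 1 after OGD and 4, 1 and 1 with Wnt3a plus Rspondin 1. Kcnk6, of the glial list, gave 0, 10 and 4 reads in control, 1, 0 and 0 after OGD and 2, 5 and 3 with Wnt3a plus Rspondin 1. Given the library totals, 0 reads allow a level of up to 3 counts, or 0.12 to 0.21 CPM.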

How the data were processed

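The authors deposited, per the file headers, tables of whole-number read counts and of FPKM for 22050 rat Ensembl genes in 9 libraries, beside their own log2 fold, p-value and false discovery rate columns, computed with a test that no source used here names. Libraries were made with an Illumina TruSeq kit, per the labels' protocols. Bowtie 0.12.2 and mm8 and mm9, which are mouse builds, stand in the submitters' processing notes, although the identifiers are rat. The rat build, counter and strand setting are not given in the sources used here. In RefSeq's GRCr8 annotation 31 of the 71 tested members overlap another gene, 7 of them a protein-coding one, and reads of such pairs may not be told apart.

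The deposited counts were tested with edgeR 4.0.16 in R 4.3.3: filterByExpr (minimum count 10, minimum total 15), TMM scaling, 1 robust quasi-likelihood fit of 9 libraries with 3 group means (6 residual degrees of freedom, biological coefficient of variation 10.3%, prior count 0.125), and Benjamini-Hochberg adjustment over 13693 genes. "Lower", "fell", "higher" and "rose" mean an adjusted p under 0.05. Libraries were called apart when their CPM did not overlap. The script was tested on simulated data. Alternatives were RLE size factors, library totals, no filter, DESeq2 1.42.0, only the 6 libraries compared, a replicate block, limma 3.58.1 on log2(FPKM + 0.5) and leaving out each library.

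The members, the gene lists and the tests were chosen with earlier results of these data known. Values per library were given for the 3 members of each subfamily with the highest mean FPKM, the 10 largest rises and falls, members moving against their subfamily, the 5 smallest p-values for Wnt3a plus Rspondin 1, and the glial list. Kcnj11, Kcnj12, Kcnt2 and the untested members were added after their values were seen. A few genes are counted in the totals but not reported here by name. The marker genes Itgam and Pecam1 and the partner gene Cntnap2 matched no symbol. Intervals and floors reflect counting error and library spread only. For members with few reads the intervals may fall short of the counting error.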

Additional observations from a re-analysis of the deposited data

How the results depend on the processing

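Both member counts for OGD against control stayed within 1.5 times in every alternative, and no member passed in any for Wnt3a plus Rspondin 1 against OGD alone. Reversals were sought among the members named by rule and counted only where either setting passed the threshold, and none was found. For Wnt3a plus Rspondin 1 against OGD alone none could be counted, since no member passed. Scaling by library totals moved the median of all genes from 0.03 to 0.14 in the comparison of Wnt3a plus Rspondin 1 with control, where the members' median moved from -2.07 to -1.97, and from 0.02 to 0.10 for OGD against control. Counts over all genes for Wnt3a plus Rspondin 1 against OGD alone were unstable, and the cause was not tested: 24 genes were higher, but 60 with DESeq2, 12 with only the 6 libraries compared and 10 to 38 when 1 library was left out. Lower genes numbered 3, but 39 with DESeq2, 5 with RLE size factors, 7 without a filter and 2 to 11 when 1 library was left out. With the replicate number as a block 43 were higher and 22 lower, no member passed, and for OGD against control 61 members were lower and 6 higher as before. Between the OGD groups, deviations of same-numbered libraries correlated at 0.0734 to 0.267 and those of other pairs at -0.238 to -0.0236, so that each library correlated best with its own number. Deviations were taken from group means and cancel within a group, so positive same-number values force negative values in other pairs. The negative values are thus no separate support. As 1 of the 3 same-numbered values was under 0.1 and the labels name no shared batch, the match is a hint from the data. The libraries were not treated as paired. Same-numbered control and OGD libraries correlated at -0.0548 to 0.273, and other pairs of these groups at -0.319 to 0.278. Between Wnt3a plus Rspondin 1 and control, Kcnk10 lost its call with library totals (-0.20, adjusted p = 0.0945) and limma on log2 FPKM (-0.19, adjusted p = 0.105). In that comparison Kcna2 lost it with library totals (-0.16, adjusted p = 0.185), limma (-0.16, adjusted p = 0.242) and without control replicate 2 (-0.23, adjusted p = 0.105), control replicate 3 (-0.24, adjusted p = 0.0906) or replicate 2 of the Wnt3a plus Rspondin 1 group (-0.16, adjusted p = 0.15), while Kcnn2 passed with only the 6 libraries compared (-0.29, adjusted p = 0.0393) and without replicate 3 of that group (-0.38, adjusted p = 0.0328). Depth limits the members with few reads.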
